A study of Mus musculus with 6 samples.

Results

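Kinesins are the microtubule motors that carry cargo, build the spindle and trim microtubule ends. The genes described here are the rows of the deposited count table whose GENCODE symbol is Kif or Kifc followed by a number, with at most the letter a, b or c after a Kif number. The rule found 41 genes among 51912 rows. It used symbols only and no measured value. The rule, the roles and the gene lists used below were, however, chosen with earlier results of these data known. Messenger RNA was sequenced from R1 mouse embryonic stem cells, an established line, in 6 libraries. All 6 share the same history: the cells were held in the naive pluripotent state in 2iLIF medium and then moved to N2B27, which contains no serum, plus 100 ng/ml of FGF2. The groups are 24 h of FGF2 and 48 h of FGF2, with 3 replicates each, and the labels name no genetic change and 1 cell line. Libraries of cells in 2iLIF, or in N2B27 without FGF2, were not analysed here, so FGF2, the new medium and time in culture cannot be told apart. The labels do not say that replicates were separate cultures, and p-values then measure only the spread between these libraries.

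A kinesin couples ATP hydrolysis in its motor domain to steps along a microtubule, or, in the depolymerising classes, to the loss of tubulin from microtubule ends. The mitotic members push spindle poles apart, move and align chromosomes and assemble the central spindle for cytokinesis, and their genes are transcribed late in the cell cycle. The transport members carry vesicles, organelles and mRNA and are best known from neurons, where cargo travels along axons and dendrites, while kinesin-2 and several smaller classes serve the primary cilium. The 41 genes were grouped by these textbook roles into 12 spindle and cytokinesis kinesins, 13 cargo transport kinesins, 4 kinesin-2 motors, 6 kinesins of the cilium and of Hedgehog signalling, and 6 others.

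The libraries held between 19574969 and 23133148 estimated counts, with the 24 h and 48 h ranges overlapping. Mitochondrial genes took between 3.08% and 3.19% of the counts at 24 h and between 2.76% and 2.94% at 48 h, and their part in the results was not tested. Pluripotency markers fitted the label: all 8 listed genes had at least 3652 counts in every library, and the 8 together summed to between 5241 and 5298 CPM (counts per 1e6, after TMM scaling of the library total) at 24 h and between 3423 and 3526 CPM at 48 h. Of these, 6 fell and 2 rose. Nanog, Esrrb and Zfp42 fell most, with log2 fold changes (48 h over 24 h) of -1.99, -1.47 and -1.06. Pou5f1 was at -0.07, while Utf1 and Sall4 rose by 0.60 and 0.22. Markers of fibroblasts, which serve as feeder cells for some stem cell cultures, summed to at most 3.83 CPM in any library, and Lum and Postn were at 0 counts in all 6. Of the 7 listed, 3 were tested and went different ways: Dcn rose, from 0 counts in every 24 h library to at most 32 at 48 h, Col1a1 fell, from at most 30 counts at 24 h to at most 9 at 48 h, and Thy1 was not called. Their part in the results was not tested.

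Across the family, kinesin mRNA took a nearly constant share of the unscaled counts, between 0.296% and 0.298% at 24 h and between 0.291% and 0.295% at 48 h. After TMM scaling the 41 kinesins summed to between 2906 and 2917 CPM at 24 h and between 2967 and 3029 CPM at 48 h. The direction of this small difference thus depended on the scaling. Of the 41 kinesins, 36 had enough counts to be tested. In edgeR's quasi-likelihood test with Benjamini-Hochberg adjustment over all 14889 genes tested, 7 kinesins were higher at 48 h, 16 were lower and 13 did not pass an adjusted p of 0.05. Called kinesins were therefore 63.9% of those tested, near the 62.8% of all tested genes that were called. Upward calls made up 30.9% and downward calls 31.9% of all tested genes. The median log2 fold change (48 h over 24 h) was -0.06 for the 36 kinesins and -0.01 for all tested genes. Values at the 2 times did not overlap for 24 of the 36, against 66.9% of all tested genes. A called change of at least 0.5 on the log2 scale was seen in 7 kinesins (19.4% of 36), against 24.9% of all tested genes.

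**Figure D1:**
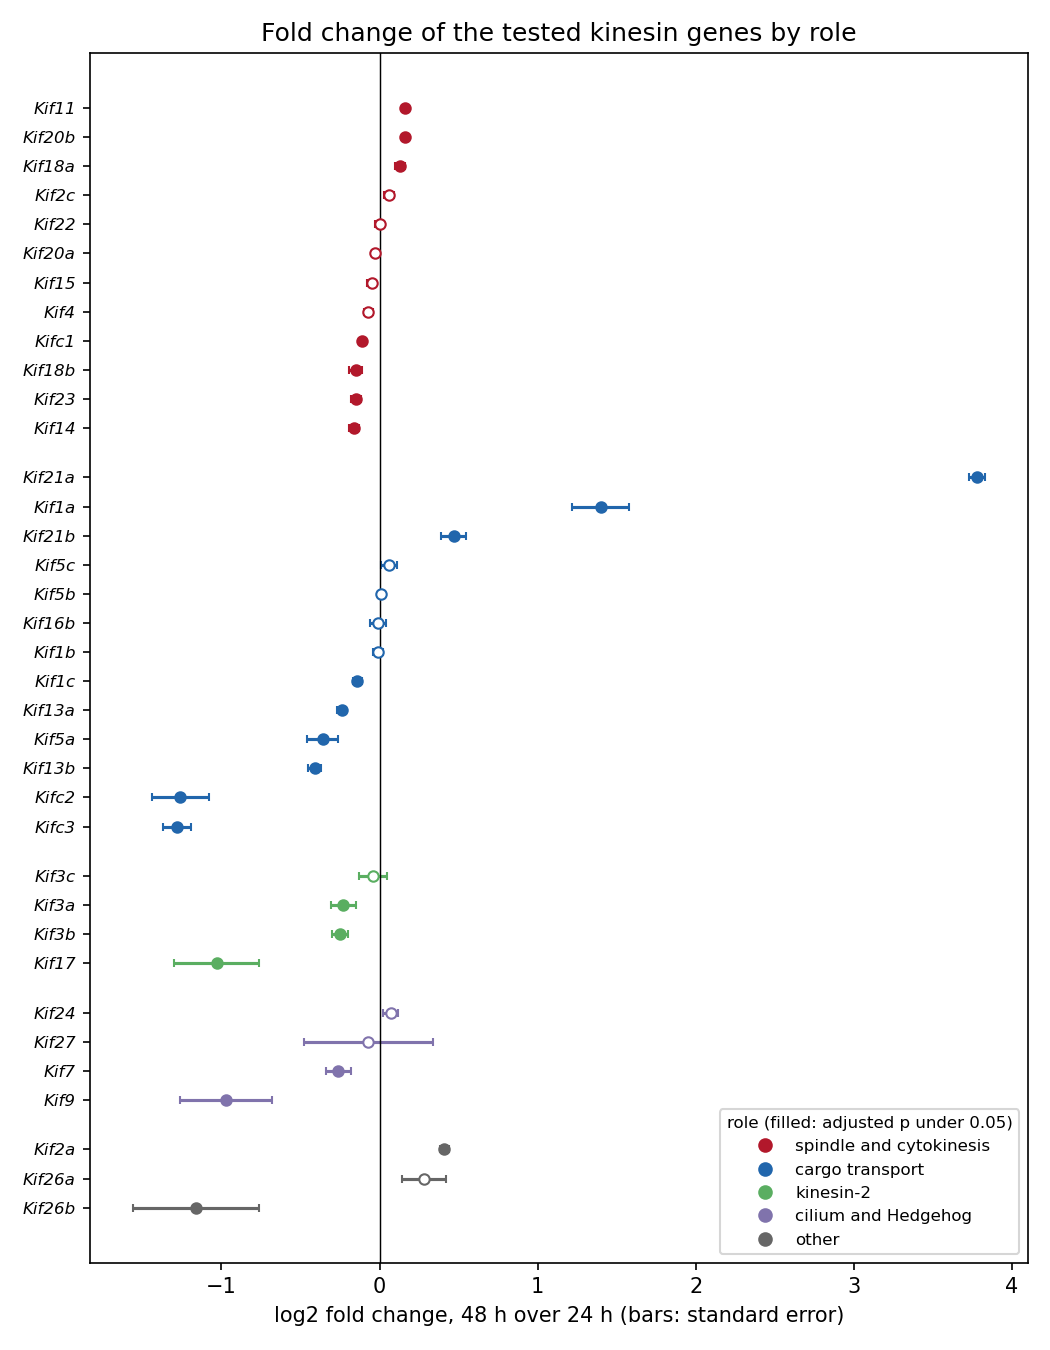
Fitted log2 fold change (48 h over 24 h) of the 36 tested kinesins, 1 point per gene, grouped by role, with the standard error as bars; filled points passed an adjusted p of 0.05. The 12 spindle and cytokinesis kinesins lie between -0.16 and 0.16, whereas the 13 transport kinesins span -1.28 to 3.78.

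The other 5 kinesins were not tested. Kif12 and Kif2b had 0 counts in all 6 libraries, where 3 counts, the limit that a count of 0 allows, correspond to 0.153 CPM in the smallest library. Kif6, Kif19a and Kif28 had at most 8 counts in any library. Kif6 and Kif19a belong to motile cilia, and Kif2b is a depolymerase of kinesin-13.

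Levels were compared between genes after division by exon length, as CPM per kilobase of merged exon. Spindle and cytokinesis genes dominated the pool: they held 69.5% ± 0.3 (SD, n = 3) of the kinesin mRNA on this per-length scale at 24 h and 67.7% ± 0.2 at 48 h. Transport genes held 23% ± 0.3 at 24 h and 24.6% ± 0.1 at 48 h. The kinesin-2, cilium and other groups each held between 1.58% and 3.79% on average. The most abundant kinesin per length was Kif20a, at 59.9 ± 0.576 CPM per kb at 24 h and 58.6 ± 0.795 at 48 h (SD, n = 3). Kif5b, the ubiquitous kinesin-1 heavy chain, followed at 54.6 ± 0.925 and 55.0 ± 0.742 CPM per kb. Kifc1 and Kif11 came next at 24 h, at 46.4 ± 0.21 and 40.4 ± 0.3 CPM per kb, and exchanged places at 48 h, at 43.0 ± 0.959 and 45.1 ± 1.11. Among neighbours lower in the order, Kif14 and Kif18a had the same mean of 7.89 CPM per kb at 24 h, and Kif3c and Kif5a the same mean of 1.66. Kif21a moved most in this order, from place 28 of 41 at 24 h to place 9 at 48 h.

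**Figure D2:**
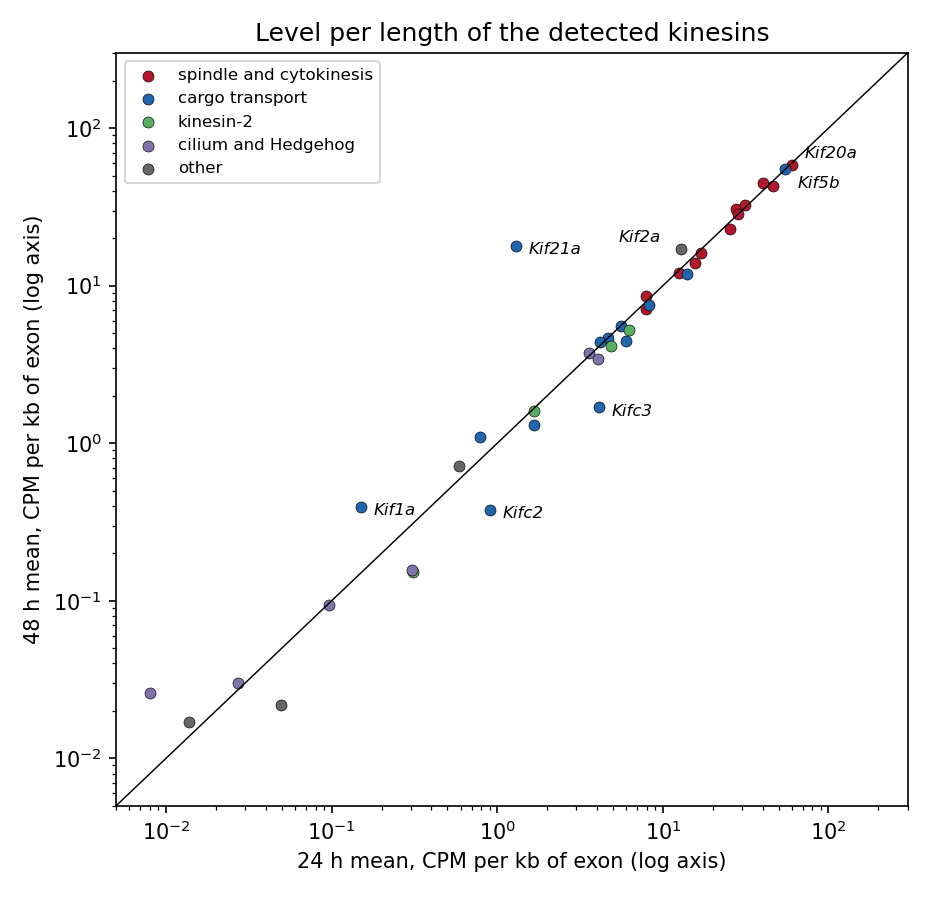
Mean level of each kinesin with a count at both times, in CPM per kb of exon, at 24 h (horizontal, log axis) against 48 h (vertical, log axis), coloured by role; the line marks equal levels. Most genes lie along the line, and Kif21a stands far above it, at 1.3 CPM per kb at 24 h and 17.9 at 48 h.

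The 12 spindle and cytokinesis kinesins that the rule found were all tested, and their changes were small. Called members were 58.3% of the 12, against 62.8% of all tested genes, where 30.9% rose and 31.9% fell. At 48 h 3 of the 12 were higher and 4 lower. The median log2 fold change of the 12 was -0.04, against -0.01 for all tested genes, and no called change among the 12 was larger than 0.16 in size. With library size as the only scaling, 2 were higher and 7 lower. The summed level of the 12 genes lay between 319 and 323 CPM per kb at 24 h and between 317 and 323 at 48 h, so the totals overlapped.

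Kif11, the bipolar kinesin-5 that slides spindle microtubules apart and the target of the drug monastrol, lies at chr19:37376403-37421859 (GRCm38, GENCODE M21) on the plus strand. It had 303, 303 and 299 CPM at 24 h and 331, 333 and 346 CPM at 48 h. All 48 h libraries were above all 24 h libraries, by 0.16 ± 0.02 on the log2 scale (fitted change ± standard error; edgeR adjusted p = 4.93e-06). Kif20b, a kinesin-6 of late cytokinesis, rose by 0.16, with means of 193.1 ± 4.44 and 215.0 ± 2.68 CPM (SD, n = 3; edgeR adjusted p = 2.03e-05). Kif18a, the kinesin-8 that damps chromosome movements at metaphase, rose by 0.13 (edgeR adjusted p = 0.00206), from 77.6 ± 1.71 to 84.9 ± 2.0 CPM. With library size as the only scaling Kif18a was at 0.07 (edgeR adjusted p = 0.0658).

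The members that fell included genes of the central spindle. Kif23 (chr9:61915905-61946774, minus strand), the kinesin-6 motor of the centralspindlin complex, had 126, 121 and 122 CPM at 24 h and 112, 108 and 112 CPM at 48 h. Its values did not overlap between the times, and its log2 fold change was -0.15 ± 0.03 (standard error; edgeR adjusted p = 0.000186). Kif14, which recruits citron kinase to the midbody, had a log2 fold change of -0.16 (edgeR adjusted p = 0.000414), with 81.7 ± 1.44 CPM at 24 h and 73.4 ± 1.58 at 48 h. Kif18b, a kinesin-8 acting on astral microtubules, had a log2 fold change of -0.15, and Kifc1, the minus-end directed kinesin-14 that focuses spindle poles, -0.11 (edgeR adjusted p = 0.00278 and 0.00103). Kifc1 was the only mitotic kinesin with fractional estimated counts, so some of its reads were divided between similar genes. Its near copy Kifc5b, which the symbol rule leaves out, had between 831 and 989 estimated counts, against 3128 to 3747 for Kifc1.

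For 5 mitotic kinesins no change was called. Kif20a, the kinesin-6 that brings the chromosomal passenger complex to the central spindle, had 258, 259 and 262 CPM at 24 h and 251, 253 and 258 CPM at 48 h. The ranges met at about 258 CPM, and the log2 fold change was -0.03 ± 0.02 (standard error; edgeR adjusted p = 0.185). Exons of Cdc23 on the opposite strand cover 29.3% of the Kif20a exons. Whether reads were assigned by strand is not given in the sources used here. Kif22, the chromosome arm motor, and Kif2c, the depolymerase of centromeres, had log2 fold changes of 0.00 and 0.06 and turned to -0.06 and 0.00 with library size as the only scaling. Kif15, a partner of Kif11 in spindle assembly, and Kif4, the chromokinesin that shortens the central spindle, were at -0.05 and -0.07. Without replicate 2 of 24 h, Kif4 passed the test at -0.09 (edgeR adjusted p = 0.0233) and Kif2c at 0.09 (0.0278). Without replicate 1 of 48 h, Kif2c passed at 0.08 (0.0385).

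**Figure D3:**
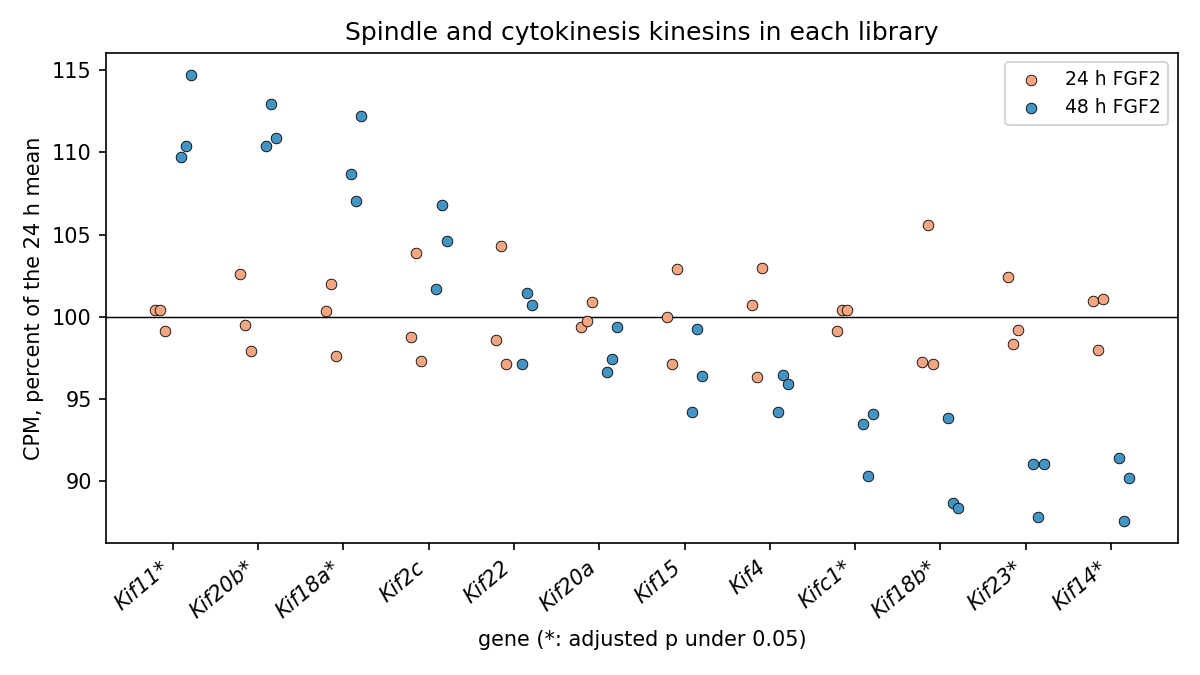
CPM of the 12 spindle and cytokinesis kinesins in each library, as a percentage of that gene's 24 h mean, with 3 libraries per time; asterisks mark genes with an adjusted p under 0.05. The 48 h libraries lie above the 24 h libraries for Kif11, Kif20b and Kif18a and below them for Kifc1, Kif18b, Kif23 and Kif14, in all cases by less than 20 percent.

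The promoters of these genes are shown because they share a short sequence that the symbol rule did not use. Late cell cycle genes often carry a cell cycle homology region, with the core TTTGAA or TTCGAA, and upstream CCAAT boxes. RefSeq promoter windows (GRCm38.p6) ran from 250 bases before to 50 after the annotated start, and both strands were searched. They were given for 32 of the 41 kinesins, in 36 windows, and for 11 of the 12 mitotic ones. In 26 of the 36, the first bases from the annotated start were found in a GENCODE M21 transcript of the same gene. In the rest they were not found, so distances from the start depend on the RefSeq annotation. TTTGAA was present in 10 of the 11 mitotic windows (90.9%), in 1 of 9 transport windows (11.1%) and in 17.9% of all 32851 windows. The 9 transport windows belong to 7 of the 13 transport genes, and the hit was in a window of Kif1a. TTCGAA was in 0 mitotic windows and in 1.56% of all windows. CCAAT was in 7 mitotic windows (63.6%), 2 transport windows (22.2%) and 37.4% of all. Within 25 bases of the start, a distance chosen after the positions were seen, TTTGAA stood in 8 of 11 mitotic windows, 1 of 25 windows of the other kinesins and 2.7% of all windows. Those 8 are printed 5′ to 3′ on the gene's strand, with the TTTGAA, or its reverse complement TTCAAA, in capitals.
Kif11 (chr19:37376351-37376380, plus strand): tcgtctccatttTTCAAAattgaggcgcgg
Kif15 (chr9:122951050-122951079, plus strand): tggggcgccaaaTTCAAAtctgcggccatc
Kif22 (chr7:127042420-127042449, minus strand): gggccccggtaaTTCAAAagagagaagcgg
Kifc1 (chr17:33890615-33890644, minus strand): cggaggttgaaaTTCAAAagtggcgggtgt
Kif23 (chr9:61946780-61946809, minus strand): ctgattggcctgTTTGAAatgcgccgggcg
Kif18b (chr11:102925104-102925133, minus strand): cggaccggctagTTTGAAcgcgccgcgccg
Kif20b (chr19:34922353-34922382, plus strand): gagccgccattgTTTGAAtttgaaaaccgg
Kif4 (chrX:100626072-100626101, plus strand): ctctgggatcaaTTTGAAacttggcggtta
In the Kif23 window the capitals follow a reverse CCAAT box (ATTGG), and in Kif20b a second copy follows the first. The 8 printed genes include members that rose (Kif11, Kif20b), that fell (Kif23, Kif18b, Kifc1) and that were not called (Kif15, Kif22, Kif4). Presence of TTTGAA could not separate the mitotic kinesins by direction, because 10 of the 11 windows hold it. Its part in the direction of change was not tested. Kif18a, which rose, was the mitotic kinesin whose window held neither core.

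Partners of these motors in the spindle moved both ways. Of 15 spindle partners, 3 rose and 4 fell, with a median of 0.03 and no change beyond 0.29 in size. Of all tested genes, 30.9% rose and 31.9% fell. The 15 include Cenpe, itself a kinesin motor that the symbol rule leaves out. Cenpe was not called, at 0.05 (edgeR adjusted p = 0.0801). Hmmr, a spindle pole protein, and Aurka, a spindle kinase, rose most, by 0.19 and 0.16. Cit, the kinase that Kif14 recruits, and Anln, a scaffold of the cleavage furrow, fell most, with log2 fold changes of -0.29 and -0.21. Racgap1, the partner of Kif23 in centralspindlin, also fell (log2 fold change -0.18, edgeR adjusted p = 1.79e-06), from 192.3 ± 0.966 to 169.4 ± 1.97 CPM (SD, n = 3). Prc1, the partner of Kif4, and Tpx2, the partner of Kif11, were not called, at 0.05 and 0.03. Of 24 genes of the G2 and M phases, 10 rose and 8 fell, with a median of 0.03. Nusap1 and Cenpf rose most, by 0.18 and 0.16, while Pttg1, the gene of securin, and Cdca3 had the lowest values, -0.61 and -0.44. The summed level of the 24 genes lay between 6859 and 6946 CPM at 24 h and between 6817 and 6924 CPM at 48 h.

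The transport kinesins spread much further than the mitotic ones. At 48 h 3 of the 13 were higher and 6 lower, with a median log2 fold change of -0.01. Called members were 69.2% of the 13, against 62.8% of all tested genes. The median size of change, in either direction, was 0.36 for the 13 transport kinesins, 0.12 for the 12 mitotic kinesins and 0.26 for all tested genes. The groups also differed in level. Among the mitotic kinesins the lowest mean at 24 h was 77.6 CPM, for Kif18a. Kif21a, Kif1a, Kifc2 and Kifc3, the transport kinesins with the largest changes, had 8.44, 1.40, 3.58 and 21.7 CPM at 24 h. At 77.5 CPM or more, Kif5b, Kif1b, Kif13a and Kif13b were at 0.01, -0.01, -0.24 and -0.41. The part of expression level in this spread was not tested. The genes that rose were the kinesin-4 genes Kif21a and Kif21b and the kinesin-3 gene Kif1a. The genes that fell were the kinesin-14 genes Kifc2 and Kifc3, the kinesin-3 genes Kif13a, Kif13b and Kif1c, and Kif5a of kinesin-1.

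Kif21a encodes a kinesin-4 that slows microtubule growth at the cell cortex and whose human counterpart is mutated in congenital fibrosis of the extraocular muscles. The gene lies at chr15:90933276-91049948 (GRCm38, GENCODE M21) on the minus strand and its exons overlap those of no other gene. It had 8.61, 8.2 and 8.52 CPM at 24 h, and 115, 120 and 113 CPM at 48 h. Every 48 h library was thus far above every 24 h library, on 168 to 201 counts per library at 24 h and 2491 to 2631 at 48 h. The fold change was 13.7, or 3.78 ± 0.05 on the log2 scale, where the error is the standard error (edgeR adjusted p = 2.6e-18). Only 31 of the 14889 tested genes had a larger fitted increase. Over the 16 alternative settings its log2 fold change stayed between 3.72 and 3.8.

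On the per-length scale Kif21a rose from 1.3 ± 0.033 to 17.9 ± 0.588 CPM per kb (SD, n = 3). It made up between 1.2% and 1.25% of the summed transport kinesins at 24 h and between 14.9% and 15.9% at 48 h. The sum of the 13 transport kinesins was 106 ± 0.97 CPM per kb at 24 h and 116 ± 1.0 at 48 h. Without Kif21a, a comparison chosen after its values were seen, the other 12 summed to 105 ± 0.95 at 24 h and 98.1 ± 1.1 at 48 h. The sum with Kif21a was therefore higher at 48 h, and the sum without it lower, with no overlap between the times in either case.

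The RefSeq window before the Kif21a start (chr15:91049952-91050201, minus strand, GRCm38.p6) is printed because this is the kinesin whose mRNA changed most. It is shown 5′ to 3′ on the gene's strand and ends at the base before the annotated start, with the motif GGGCGG, the core of a GC box, in capitals.
Kif21a: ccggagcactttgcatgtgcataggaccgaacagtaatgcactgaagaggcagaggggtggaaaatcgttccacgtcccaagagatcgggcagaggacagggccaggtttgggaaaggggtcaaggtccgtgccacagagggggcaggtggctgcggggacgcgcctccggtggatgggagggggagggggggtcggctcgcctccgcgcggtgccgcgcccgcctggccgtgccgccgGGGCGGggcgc
The 250 bases are 69.6% G and C and hold 23 CpG dinucleotides, against medians of 52.4% and 6 over all windows in the table. GGGCGG, on either strand, was found in 35.7% of all 300-base windows and in 7 of the 9 transport windows. The Kif21a window held neither CCAAT nor either core of the cell cycle homology region.

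Kif21b, the close paralogue of Kif21a, rose far less, by 0.47 ± 0.08 on the log2 scale (standard error; edgeR adjusted p = 5.33e-05). Its mean level was 9.56 ± 0.217 CPM at 24 h and 13.3 ± 0.345 CPM at 48 h (SD, n = 3). The paralogues were similar in CPM at 24 h but not at 48 h, and per length Kif21b stood at 0.785 CPM per kb at 24 h and 1.09 at 48 h. The estimated counts of both genes were whole numbers throughout.

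Kif1a, the fast motor of synaptic vesicle precursors, lies at chr1:93015464-93101951 on the minus strand. It was rare, with 1.4, 1.71 and 1.1 CPM at 24 h and 3.73, 3.66 and 3.65 CPM at 48 h. All 48 h libraries were higher, and the log2 fold change was 1.4 ± 0.18 (standard error; edgeR adjusted p = 4.29e-06), on 26 to 35 counts per library at 24 h and 80 to 81 at 48 h. Its relatives Kif1b and Kif1c, which carry mitochondria and vesicles in many cell types, were at -0.01 and -0.14. Kif1c passed the test (edgeR adjusted p = 0.00197) and Kif1b did not (0.82).

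**Figure D4:**
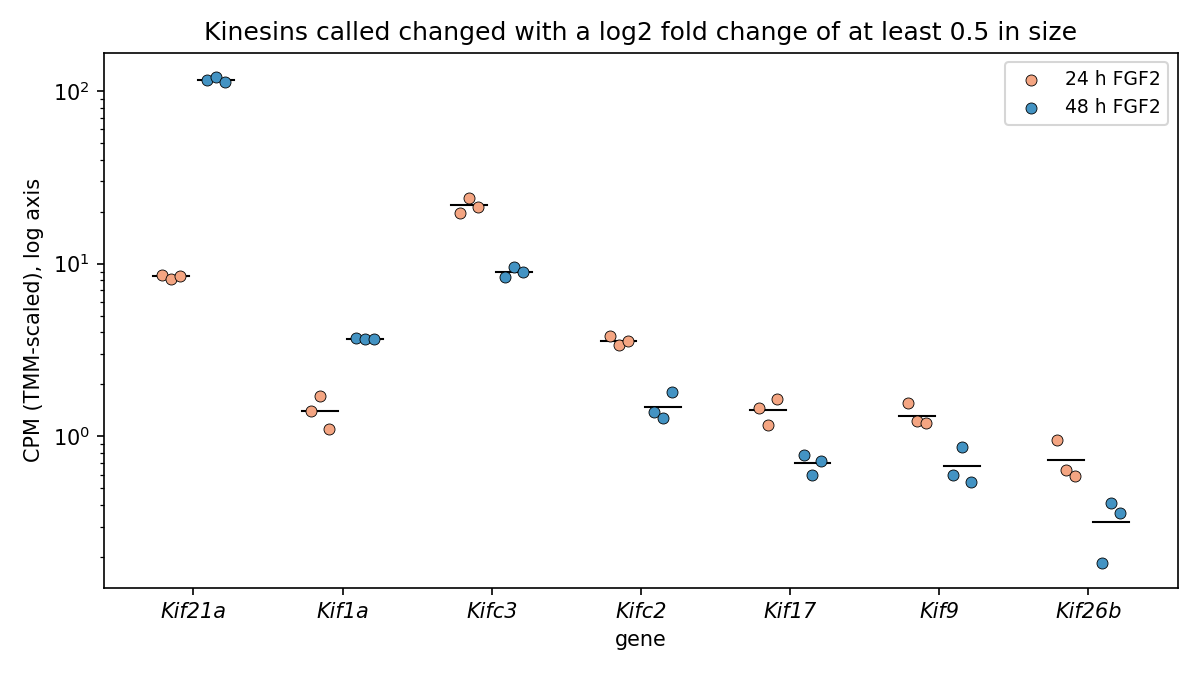
CPM (log axis) of the 7 kinesins called changed with a log2 fold change of at least 0.5 in size, with 3 libraries per time as points and the group means as lines. Kif21a goes from about 8 to over 100 CPM, Kif1a rises at a low level, and the other 5 genes are lower at 48 h.

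The largest decreases among transport kinesins were those of the minus-end directed kinesin-14 motors. Kifc3, which acts at epithelial adherens junctions and in apical transport, lies at chr8:95099828-95202812 on the minus strand. It had 19.7, 24.1 and 21.4 CPM at 24 h and 8.42, 9.55 and 8.93 CPM at 48 h. The times did not overlap, and the log2 fold change was -1.28 ± 0.09 (standard error; edgeR adjusted p = 1.64e-09), a level 2.42 times as high at 24 h as at 48 h. Kifc2, a neuronal relative, lies at chr15:76659858-76668196 on the plus strand. Its values were 3.8, 3.37 and 3.56 CPM at 24 h and 1.38, 1.28 and 1.8 CPM at 48 h, again without overlap (log2 fold change -1.26 ± 0.18, standard error; edgeR adjusted p = 1.09e-05).

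The remaining decreases were smaller. Kif13b, which transports phosphoinositides and the Dlg1 scaffold, had 77.5 ± 5.21 CPM at 24 h and 58.3 ± 1.9 CPM at 48 h, a log2 fold change of -0.41 (SD, n = 3; edgeR adjusted p = 5.35e-07). Kif13a, a motor of recycling endosomes, had a log2 fold change of -0.24 (edgeR adjusted p = 1.38e-06). Within kinesin-1, the motor best known for fast axonal transport, the members differed. Kif5a, the neuronal heavy chain, fell, with a log2 fold change of -0.36 and means of 11.6 ± 1.59 and 9.06 ± 0.667 CPM (SD, n = 3; edgeR adjusted p = 0.00666). Kif5b had 431, 433 and 445 CPM at 24 h and 433, 438 and 445 CPM at 48 h. These ranges overlapped almost fully, and the log2 fold change was 0.01 ± 0.02 (standard error; edgeR adjusted p = 0.722), which became -0.05 (0.0209) with library size as the only scaling. Kif5c, also neuronal, was at 0.06 (edgeR adjusted p = 0.259), with values that did not overlap between the times. Kif16b, an endosomal motor, was at -0.01.

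Cargo adaptors and light chains moved both ways, with more falling than rising. Of 17 transport partners, 2 rose and 7 fell, with a median of -0.06. Of all tested genes, 30.9% rose and 31.9% fell. Klc2, a kinesin-1 light chain, and Rhot1, a mitochondrial anchor of kinesin-1, rose, by 0.39 and 0.12. Plekhm2, which links kinesin-1 to lysosomes, and Fez1, a kinesin-1 adaptor, fell most, with log2 fold changes of -0.85 and -0.73. Of 22 genes of dynein, the opposing motor, its partner dynactin and its adaptors, 6 rose and 9 fell, with a median of -0.07. The adaptors Hook1 and Bicd1 rose most, each by 0.56. The intermediate chain Dync1i1, near 1 CPM, and the adaptor Hook2 had the lowest values, -1.21 and -0.72.

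Neural markers moved in both directions. Of the 10 listed neural markers, 9 were tested, 4 rose and 4 fell, and their summed level was between 349.8 and 361.6 CPM at 24 h and between 280.5 and 304.5 CPM at 48 h. Pax6 and Sox1, of neural progenitors, rose by 1.56 and 1.31, Map2 and Elavl3, of neurons, by 0.88 and 0.97. Ncam1, Stmn2 and Tubb3, also found in neurons, fell, with log2 fold changes of -0.76, -0.71 and -0.53. Nes, of neural progenitors, also fell (log2 fold change -0.19, edgeR adjusted p = 0.0157), and Dcx, of young neurons, had at most 2 counts in any library. Primitive endoderm markers fell in sum, from between 49.96 and 58.1 CPM at 24 h to between 16.5 and 17.05 CPM at 48 h. Of the 7 listed, 4 were tested, 2 fell and 0 rose, and most of the sum was Lama1, at 43.13 CPM at 24 h and 10.79 CPM at 48 h on average. Gata4 was the other that fell, while Dab2 and Pdgfra were not called. The part of any such cells in the kinesin results was not tested, and in bulk RNA fewer cells of a type and less RNA per cell cannot be told apart.

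Of the 4 kinesin-2 motors, which drive intraflagellar transport, 3 fell and 0 rose. Called members were 75.0% of the 4. Among all tested genes 62.8% were called, in either direction, and 31.9% fell. Kif3b, the most abundant kinesin-2 motor per length, had 34.1, 35.7 and 35.9 CPM at 24 h and 28.8, 29.7 and 30.4 CPM at 48 h. The times did not overlap (log2 fold change -0.25 ± 0.05, standard error; edgeR adjusted p = 0.000146). Kif3a, its partner in the heterotrimer, had a log2 fold change of -0.23 (edgeR adjusted p = 0.0178), which did not pass with DESeq2 (-0.22, adjusted p = 0.0601), without replicate 2 of 24 h (-0.20, edgeR adjusted p = 0.0717), without replicate 1 of 48 h (-0.16, 0.1) or without replicate 2 of 48 h (-0.22, 0.0556). Kifap3, the subunit that binds both, was at 0.01 (edgeR adjusted p = 0.776).

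Kif17, a homodimeric kinesin-2 of cilia and dendrites, lies at chr4:138250435-138301967 on the plus strand. It had 1.45, 1.17 and 1.65 CPM at 24 h and 0.782, 0.594 and 0.722 CPM at 48 h, from 13 to 39 counts per library. The 24 h libraries were all higher, and the log2 fold change was -1.03 ± 0.27 (standard error; edgeR adjusted p = 0.00362). Kif3c, the neuronal alternative to Kif3b, was at -0.04 (edgeR adjusted p = 0.708). Exons of 1110002L01Rik on the opposite strand, which rose by 1.12, cover 35.3% of the Kif3c exons, and their part in the Kif3c value was not tested.

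Among the kinesins of the cilium and of Hedgehog signalling, 2 of the 4 tested fell and 0 rose. Called members were 50.0% of the 4, against 62.8% of all tested genes. Kif7, which tunes the tip of the cilium for Hedgehog signalling, had 17, 18.7 and 20.1 CPM at 24 h and 16.7, 15.1 and 14.9 CPM at 48 h. The highest 48 h library lay just under the lowest 24 h library (log2 fold change -0.26 ± 0.08, standard error; edgeR adjusted p = 0.00748). The call was lost without replicate 3 of 24 h, at -0.20 (edgeR adjusted p = 0.0541). Exons of 9330171B17Rik on the opposite strand cover 19.1% of the Kif7 exons. Those of Ticrr, which fell (log2 fold change -0.71), cover 1.11%. Kif9, a kinesin of motile cilia and sperm flagella at chr9:110476958-110525179 on the plus strand, had 1.55, 1.22 and 1.19 CPM at 24 h and 0.598, 0.868 and 0.541 CPM at 48 h. It was lower in all 48 h libraries (log2 fold change -0.97 ± 0.29, standard error; edgeR adjusted p = 0.0079), on 12 to 31 counts per library. Kif24, which restrains cilium assembly at the mother centriole, and Kif27, a relative of Kif7 with at most 17 counts, were at 0.07 and -0.07 and were not called.

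Of the other kinesins, Kif2a rose. This kinesin-13 depolymerase acts at spindle poles and prunes neurites. It had 84.9, 80.5 and 82.9 CPM at 24 h and 108, 110 and 111 CPM at 48 h. Every 48 h library was higher, and the log2 fold change was 0.41 ± 0.03 (standard error, edgeR adjusted p = 4.65e-09). This exceeded the value of every kinesin placed in the mitotic group, including its paralogue Kif2c at 0.06. Kif2a itself was not placed there. Exons of Dimt1 on the opposite strand, which rose by 0.21, cover 19.2% of the Kif2a exons.

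Kif26b and Kif26a are kinesin-11 members whose motor domains lack ATPase activity. Kif26b (chr1:178529125-178939200, plus strand) had 0.951, 0.635 and 0.593 CPM at 24 h and 0.184, 0.411 and 0.361 CPM at 48 h, on 4 to 19 counts per library. The times did not overlap and the log2 fold change was -1.16 ± 0.4 (standard error; edgeR adjusted p = 0.0199). The call did not hold with DESeq2 (-1.17, adjusted p = 0.0759), without replicate 1 of 24 h (-0.93, edgeR adjusted p = 0.0994) or without replicate 1 of 48 h (-0.89, 0.0924). Kif26a was at 0.28 (edgeR adjusted p = 0.082) and passed the test without replicate 1 of 24 h, at 0.43 (0.0149).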

How the data were processed

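The authors' deposited table holds RSEM estimated counts per gene for 6 libraries, not scaled for depth or length. The submitters' processing notes name cutadapt 1.9.1, STAR 2.5.2, RSEM 1.3.0 and GRCm38. The annotation and the use of strand are not given in the sources used here. Columns matched sample titles, and 51633 of 51912 identifiers had a GENCODE M21 symbol. Counts were rounded, filtered with edgeR's filterByExpr (minimum count 10), scaled by TMM and compared with edgeR 4.0.16 (glmQLFit and glmQLFTest, group as the only term, R 4.3.3), with Benjamini-Hochberg adjustment over all genes. The fit was checked on simulated data. CPM are counts relative to the TMM-scaled total. Per-length levels divide CPM by the merged exons of GENCODE M21, which may differ from the transcripts expressed. A standard error is the log2 fold change divided by the square root of F. Per-library values were given for called kinesins with a log2 fold change of at least 0.5 in size. They were also given for the kinesin of each role that was most abundant per length at 24 h. For the cilium role this was Kif7, while Kif24 stood higher at 48 h (3.76 against 3.4 CPM per kb). Kif11 and Kif23 were added after their values were seen. Each partner list is represented by its 2 largest rises and 2 largest falls. Named partners of single motors were also added after their values were seen. The members, roles and lists were chosen with earlier results of these data known. Alternatives were other scalings, filters and tools (DESeq2 1.42.0, limma 3.58.1 voom), unrounded counts, a replicate block, a stricter threshold and leaving out each library.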

Additional observations from a re-analysis of the deposited data

How the results depend on the processing

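Across 16 alternatives, 19 of the 23 called kinesins kept their direction and call wherever they were tested. The exceptions were Kif3a, Kif7, Kif26b and Kif18a, and 0 of the 23 changed sign. With library size as the only scaling, which moved the median of all genes from -0.01 to -0.07, 7 mitotic kinesins were lower and the medians were -0.10 (mitotic) and -0.07 (transport). Under that setting 20 kinesins were lower. Kif15, Kif20a and Kif4 gained a call, at -0.11, -0.09 and -0.13, Kif5b turned to -0.05 and was called (edgeR adjusted p = 0.0209), and Kif22 and Kif2c turned to -0.06 and 0.00, uncalled. Kif22 also reached 0.00 when the filter asked for 1 count only, and Kif27 was 0.04 with limma voom. Leaving out 1 library gave transport medians from -0.06 (without replicate 2 of 24 h) to 0.00. In those fits signs turned for genes without a call, with ranges of -0.06 to 0.02 for Kif16b, -0.04 to 0.01 for Kif1b, -0.02 to 0.03 for Kif22, -0.39 to 0.29 for Kif27, -0.13 to 0.00 for Kif3c and 0.00 to 0.02 for Kif5b. For all of these, the cause was not tested. With the replicate block, 7 kinesins were higher and 16 lower and no kinesin's call changed. Deviations of same-numbered libraries from their group means correlated at -0.05, -0.04 and -0.01. The labels do not say whether same-numbered libraries shared a culture or batch. These correlations cannot decide it, because with 3 libraries per group such deviations also hold counting noise. Kif27, Kif26b, Kif9 and Kif17 had at most 39 counts in any library, and 5 kinesins had too few counts to be tested.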
